A study of Mus musculus with 8 samples.

Results

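The genes described here encode the growth factors that mouse oocytes secrete, the bone morphogenetic protein (BMP) ligands and receptors of the ovary, the BMP antagonist gremlin and the KIT ligand of granulosa cells. They were listed by name, with no threshold on measured values, as Gdf9, Bmp15, Bmp2, Bmp4, Bmp6, Bmpr1a, Bmpr1b, Bmpr2, Grem1 and Kitl. These 10 genes have 12 of the 36227 probes on the array, with 2 probes each for Bmp2 and Bmp15, and are 10 of 18069 named genes. Ovarian RNA was measured on CodeLink whole mouse arrays in 4 pioglitazone-treated and 4 vehicle-treated female Lethal Yellow (LY) mice, with 1 array and 1 ovary per mouse. All 8 mice were C57BL/6J Ay/a heterozygotes, which carry a dominant agouti allele that is active far beyond the skin and which become obese and insulin resistant with age. Pioglitazone, a thiazolidinedione (TZD) that activates the nuclear receptor PPARγ, was given by daily gavage in DMSO for 60 days, from 120 to 180 days of age, and the vehicle mice received DMSO alone. The daily dose is 0.1 mg in the sample labels and 0.01 mg in the methods text, and this difference could not be settled here. Lean BL mice were not analysed here, so the comparison is between drug and vehicle within an obese strain.

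GDF9 and BMP15 are made by the oocyte and act on the granulosa cells around it, where they drive follicle growth and cumulus expansion. BMP ligands bind a pair of type I and type II receptors, which phosphorylate SMAD1, SMAD5 and SMAD9, and secreted antagonists such as gremlin keep the ligands from their receptors. KIT ligand runs the other way, from granulosa cells to the KIT receptor on oocytes and theca cells, and is needed for oocyte growth. In whole ovary RNA, fewer cells of a type and less RNA per cell cannot be told apart.

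Promoter sequences were looked up for the genes, and 8 of the 10 had an entry in the RefSeq promoter table (build GRCm38.p6). In 5 of them, the 250 bases before the listed start site lay outside the gene itself. Of these, Bmp15 is shown as the oocyte-specific gene, and Grem1 and Bmpr2 as the genes with the largest positive log2 differences among the 5. The capitals mark motifs that were searched on both strands. TAATTA and TAATTG are the core letters bound by NOBOX, a homeobox factor of oocytes. AGGTCA is the single repeat unit of many nuclear receptor sites, which PPARγ with its partner RXR binds as a direct repeat, CACGTG is an E-box and TATAAA is a TATA box.
Bmp15 (chrX:6320725-6320974, minus strand): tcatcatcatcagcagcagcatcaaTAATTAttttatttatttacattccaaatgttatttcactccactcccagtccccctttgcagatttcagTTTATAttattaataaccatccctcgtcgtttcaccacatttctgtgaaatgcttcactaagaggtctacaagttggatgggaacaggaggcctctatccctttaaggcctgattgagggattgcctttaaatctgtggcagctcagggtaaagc
Grem1 (chr2:113758649-113758898, minus strand): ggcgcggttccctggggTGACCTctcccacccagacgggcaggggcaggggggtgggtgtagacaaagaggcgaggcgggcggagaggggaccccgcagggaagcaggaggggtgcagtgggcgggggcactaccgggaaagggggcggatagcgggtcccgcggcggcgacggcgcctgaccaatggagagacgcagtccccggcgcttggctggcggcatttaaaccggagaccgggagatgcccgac
Bmpr2 (chr1:59764029-59764278, plus strand): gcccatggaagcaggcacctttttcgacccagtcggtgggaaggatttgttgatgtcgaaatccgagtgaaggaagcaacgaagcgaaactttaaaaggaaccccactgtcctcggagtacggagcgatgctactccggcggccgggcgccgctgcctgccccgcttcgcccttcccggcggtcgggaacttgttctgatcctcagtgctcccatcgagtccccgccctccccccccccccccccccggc
The Bmp15 window held TAATTA, whose letters are the same on both strands, 225 bases before the start site, and TATAAA on the reverse strand 155 bases before it. Of 32851 promoter windows of this length, 4.84% held TAATTA, 7.17% held TAATTG and 12.4% held TATAAA. The Grem1 window held AGGTCA on the reverse strand 233 bases before the start site, which 14.0% of all windows did, and none of the motifs stood in the Bmpr2 window. The windows of Bmp4 and Bmp6 each held CACGTG, 188 and 127 bases before the start site, against 6.02% of all windows. These matches describe letters and are not evidence of binding.

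Values are intensities on a linear scale, corrected for background and set relative to the median of each array, so that 1 is the level of the median probe (relative intensity units, with 0.2 as the limit of sensitivity). For the test, values under 0.05 were raised to 0.05, log2 values were fitted with limma across all probes, and the log2 difference is pioglitazone minus vehicle. On each array 82.7% to 84.0% of spots reached 0.2. The test covered 30634 probes, of which 1685 (5.5%) had an unadjusted p under 0.05 (called below), while the methods' t-test gave 2130 such probes. In limma 0 passed an adjusted p of 0.05, with 0.599 as the smallest. The labels number the mice 1 to 4 in each group, and neither the sample titles nor the methods text states a pairing by number. Mice with the same number deviated from their group means together, so that a fit with the number as a block is given where it changes a call. All 16 oocyte markers and 8 of 9 granulosa markers with a probe averaged at least 0.2 in at least 1 group. Since most spots of any kind reached 0.2, these counts cannot check the tissue label. The oocyte markers had mean log2 levels of 2.38 to 3.01 in pioglitazone mice and 2.52 to 2.93 in vehicle mice. These levels lie above that of the median probe. Adipocyte genes were also present, and their mean log2 level was highest in pioglitazone mouse 1 (3.49, against 0.27 to 1.53 in the other pioglitazone mice and 1.21 to 2.47 in vehicle mice).

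None of the 10 genes was called between pioglitazone and vehicle, against a background of 5.5% of the probes tested. All 10 passed the filter on dim probes. The log2 difference was positive in 6 genes (Bmp15, Bmp2, Bmp6, Bmpr2, Grem1, Kitl) and negative in 4 (Gdf9, Bmp4, Bmpr1a, Bmpr1b), with a median of 0.10 beside -0.034 over all probes tested. Pioglitazone and vehicle values overlapped in each of the 10 genes, while they did not overlap in 4.59% of the probes tested. The largest estimates were -0.46 for Bmpr1a, 0.41 for Grem1 and 0.34 for Bmpr2. Their 95% intervals ran from -1.47 to 0.56 for Bmpr1a, from -0.24 to 1.07 for Grem1 and from -0.07 to 0.76 for Bmpr2, so that each interval includes 0 and also includes changes of over 1.5-fold in the direction of the estimate.

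**Figure D1:**
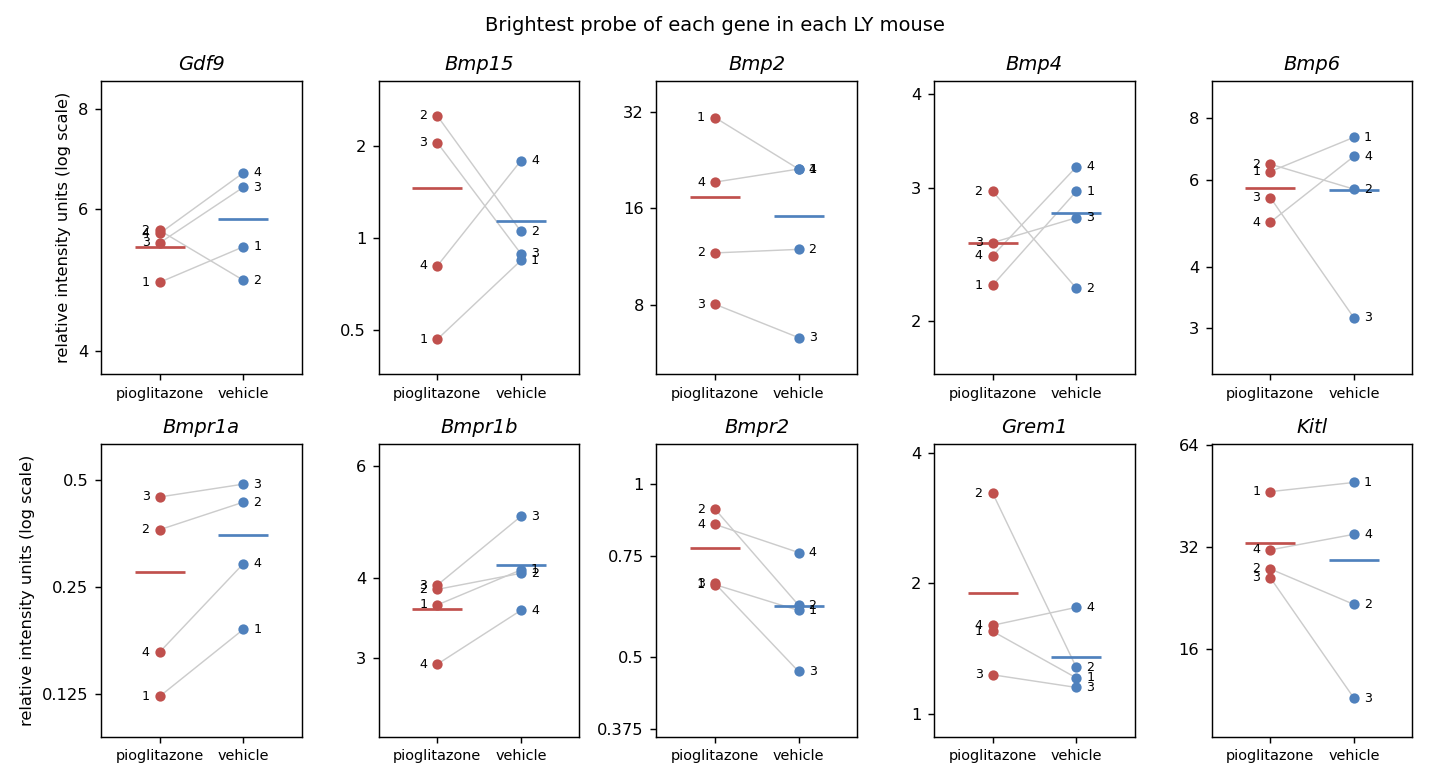
Relative intensity units (log axes) of the brightest probe of each of the 10 genes in every LY mouse, with 4 pioglitazone mice on the left and 4 vehicle mice on the right. Points carry the mouse number, grey lines join mice with the same number, and horizontal lines are arithmetic group means. The groups overlap in every panel, Bmpr2 is higher and Bmpr1a and Bmpr1b are lower with pioglitazone at all 4 numbers.

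Gdf9, the oocyte factor needed for follicles to grow beyond the primary stage, was among the steadiest of the genes. It had 4.87, 5.65, 5.45 and 5.60 relative intensity units in pioglitazone mice 1 to 4, against 5.39, 4.90, 6.39 and 6.66 in vehicle mice 1 to 4. The pioglitazone values lay close together, within the range of the vehicle values apart from mouse 1 just below it. The mean was 5.39 ± 0.36 with pioglitazone and 5.83 ± 0.83 with vehicle (SD, n = 4 each), a log2 difference of -0.10 (standard error 0.15, adjusted p = 0.916 in limma). Its 95% interval of -0.44 to 0.23 corresponds to 0.739 to 1.17 times the vehicle level. The within-group SD of Gdf9 was 0.16 on the log2 scale, smaller than in most probes (13.4% of the tested probes had a smaller one, and the median was 0.29).

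Bmp15, the X-linked partner of GDF9 in the oocyte, varied far more between mice. Pioglitazone mice 1 to 4 had 0.466, 2.51, 2.05 and 0.81 relative intensity units, against 0.844, 1.05, 0.89 and 1.79 in vehicle mice 1 to 4. The pioglitazone group held both the lowest and the highest values of the 8, with mice 2 and 3 high and mice 1 and 4 low, while in the vehicle group mouse 4 was the highest. The mean was 1.46 ± 0.98 with pioglitazone and 1.14 ± 0.44 with vehicle (SD, n = 4 each), and the log2 difference was 0.12 (standard error 0.51, adjusted p = 0.977 in limma), with a 95% interval from -1.04 to 1.27. Its within-group SD of 0.88 was above that of 97.0% of the probes tested. A second Bmp15 probe had a value in only 2 arrays, 1.78 in pioglitazone mouse 3 and 1.64 in pioglitazone mouse 4. Its spots were coded as missing in the other 6, so it was not tested. Without pioglitazone mouse 1, 2 or 3 the log2 difference of Bmp15 was 0.56, -0.25 and -0.15, and without vehicle mouse 1 it was -0.005.

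The oocyte markers as a list ordered the mice differently from Gdf9. The 16 oocyte markers, which include the zona pellucida genes Zp1, Zp2 and Zp3 and the maternal gene Zar1, had mean log2 levels of 3.01, 2.65, 2.38 and 2.73 in pioglitazone mice 1 to 4, against 2.81, 2.52, 2.53 and 2.93 in vehicle mice 1 to 4. In both groups mice 1 and 4 were the higher ones, and pioglitazone mouse 1, the highest of the 8 for the list, had the lowest Gdf9 value. The summed level of the list was 160 to 303 relative intensity units with pioglitazone and 173 to 245 with vehicle. Of its genes 8 had positive and 8 negative log2 differences, and Padi6 was called as lower (-0.28) without the block and not with it. Set relative to this list, the log2 difference was -0.10 for Gdf9 and 0.12 for Bmp15, the same as without it. The residuals of Gdf9 and Bmp15 about their group means had a Pearson r of 0.477 (exact permutation p = 0.231 over 8 mice) and a Spearman rho of 0.381 (exact permutation p = 0.36), with adjusted p of 0.289 and 0.45 over the 5 pairs of genes examined. Without the 2 mice farthest from the median of Gdf9, vehicle mice 3 and 4, r was 0.595.

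Among 12028 genes with at least 0.5 relative intensity units in every array, those whose log2 values were most like Gdf9 over the 8 mice were D830015G05Rik (Pearson r 0.892, Spearman rho 0.81), Gm16675 (0.865 and 0.81), Bcat2 (0.861 and 0.857), Kcnk1 (0.854 and 0.929) and Fstl3 (0.853 and 0.81). Bcat2 is a branched-chain amino acid transaminase, Kcnk1 a potassium channel and Fstl3 a follistatin-like protein that binds activins and related ligands. These are the highest of many coefficients and describe only these 8 arrays.

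Bmp2, a BMP that granulosa cells make in rodent follicles, differed strongly between mice and little between treatments. Its brightest probe, designed on an expressed sequence tag, had 30.7, 11.6, 8.02 and 19.3 relative intensity units in pioglitazone mice 1 to 4, against 21.2, 11.9, 6.31 and 21.2 in vehicle mice 1 to 4. Mice 1 and 4 were high and mice 2 and 3 low in both groups. The means were 17.4 ± 10.0 with pioglitazone and 15.1 ± 7.3 with vehicle (SD, n = 4 each), and the highest mouse was 3.83 times the lowest with pioglitazone and 3.36 times with vehicle. The log2 difference was 0.18 (standard error 0.49, adjusted p = 0.959 in limma, 95% interval -0.93 to 1.28). With the mouse number as a block its standard error was 0.16 (adjusted p = 0.722). The log2 difference turned to -0.16 without pioglitazone mouse 1, to -0.19 without vehicle mouse 3 and to -0.13 relative to the granulosa list.

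The second Bmp2 probe, on the RefSeq transcript, did not show the same order of mice. It had 1.54, 2.18, 1.74 and 2.54 relative intensity units in pioglitazone mice 1 to 4, against 1.88, 1.42, 1.16 and 3.12 in vehicle mice 1 to 4. Pioglitazone mouse 1 was thus the highest of its group on the first probe and the lowest on the second. In the vehicle group mice 1 and 4 were higher than mice 2 and 3 on both. The log2 difference of the second probe was 0.16 (standard error 0.30, adjusted p = 0.943 in limma).

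Kitl, the KIT ligand of granulosa cells, had 46.6, 27.6, 26.0 and 31.4 relative intensity units in pioglitazone mice 1 to 4, against 49.6, 21.7, 11.5 and 34.9 in vehicle mice 1 to 4. Mouse 1 was the highest and mouse 3 the lowest in each group, and vehicle mouse 3 lay below all others. The means were 32.9 ± 9.4 with pioglitazone and 29.4 ± 16.5 with vehicle (SD, n = 4 each), with a log2 difference of 0.32 (standard error 0.41, adjusted p = 0.909 in limma) and a 95% interval from -0.61 to 1.25. Without vehicle mouse 3 the log2 difference was -0.064. Relative to the granulosa list it was 0.018.

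The residuals of the brightest Bmp2 probe and of Kitl about their group means varied together over the 8 mice. The second Bmp2 probe, which ordered the pioglitazone mice differently, was not used for this relation. Pearson r was 0.885 (exact permutation p = 0.00221, adjusted p = 0.011 over 5 pairs) and Spearman rho was 0.952 (exact permutation p = 0.00114, adjusted p = 0.0057). These permutations take the 8 mice as independent, whereas mice with the same number deviated together and Bmp2 kept its side of the group mean at all 4 numbers, so the p-values overstate the evidence and the relation is given as a description. Without the 2 mice farthest from the median of Bmp2, vehicle mouse 3 and pioglitazone mouse 1, r was 0.71. Of the other pairs examined, Bmpr1b with Kitl had r = -0.549 and rho = -0.548 (exact permutation p = 0.154 and 0.171, adjusted p = 0.257 and 0.427), and Bmp4 with its antagonist Grem1 had r = 0.582 and rho = 0.429 (exact permutation p = 0.13 and 0.299, adjusted p = 0.257 and 0.45). Without the 2 mice farthest from the median these were -0.252 for Bmpr1b with Kitl and 0.752 for Bmp4 with Grem1. With quantile and cyclic loess normalization, chosen after seeing the data, r of Bmpr1b with Kitl was -0.813 and -0.845.

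The luteal markers followed the mouse number as well. The 7 luteal markers tested, among them Akr1c18, Ptgfr and Star, had mean log2 levels of 1.96, 4.40, 4.32 and 2.35 in pioglitazone mice 1 to 4, against 2.78, 4.82, 4.40 and 3.13 in vehicle mice 1 to 4. The luteal list was thus high in mice 2 and 3 of both groups, where the brightest Bmp2 probe and Kitl were low. The luteal list had 1 positive and 6 negative log2 differences with pioglitazone (median -0.72) and the granulosa list 8 positive and 0 negative (median 0.30), with 0 genes called in either without the block. In the means of these lists the pioglitazone mouse was lower at all 4 numbers for the luteal list and higher at all 4 for the granulosa list. With the mouse number as a block 4 of the 7 luteal genes (Star, Cyp11a1, Scarb1 and Akr1c18) were called as lower and 1 granulosa gene (Nr5a2) as higher. Each had an adjusted p of 0.575 in limma, against 8.6% of all probes called in either direction, 3.4% as higher and 5.2% as lower. The luteal genes Hsd3b1, Ptgfr and Sfrp4 were not called with the block and had log2 differences of -0.37, -0.053 and 0.23. Smooth muscle markers were higher with pioglitazone in 5 of 5 genes (median 0.38), of which 2 were called (Myh11 and Cnn1) without the block and 3 with it (Des as well). Without the block 1.97% of all probes tested were called as higher. Myh11 and Cnn1 had unadjusted p of 0.0496 and 0.0359 there, each with an adjusted p of 0.837 in limma. With the block the adjusted p of all 3 was 0.575. Summed over genes, the luteal list was at 139 to 349 relative intensity units with pioglitazone and 269 to 397 with vehicle, the granulosa list at 99.1 to 177 with pioglitazone and 90.0 to 123 with vehicle, and the smooth muscle list at 235 to 285 with pioglitazone and 204 to 240 with vehicle. Hsd3b1 made up most of the luteal sum in every mouse, at 113 to 215 with pioglitazone and 197 to 242 with vehicle. The part of these lists in the values of single genes was not tested.

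**Figure D2:**
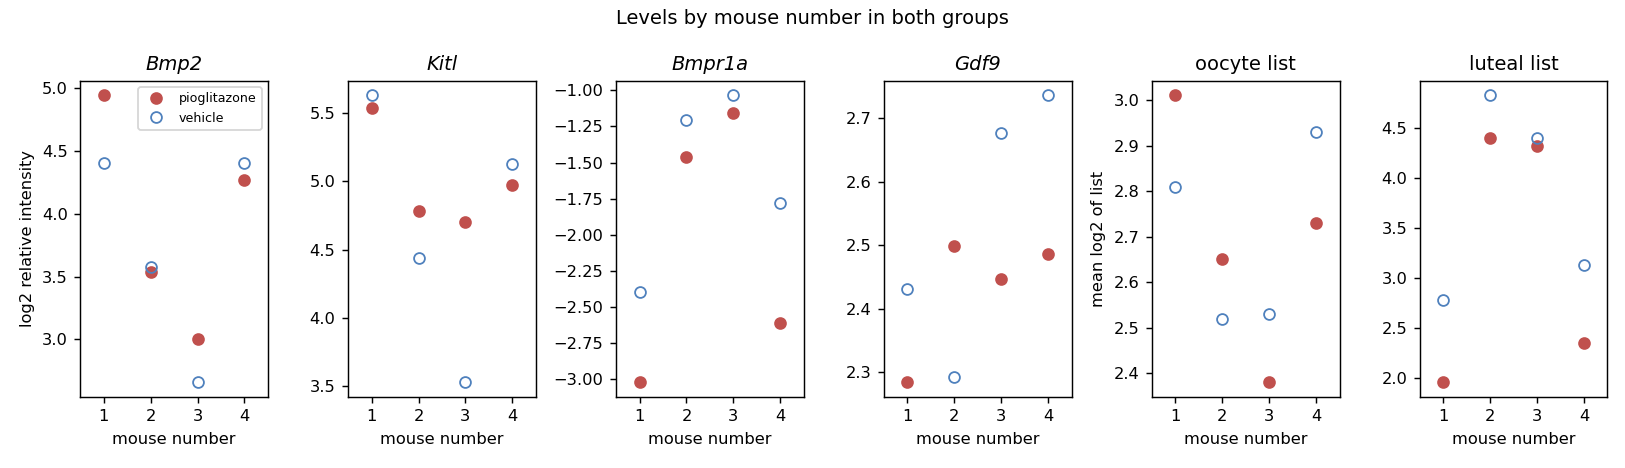
Log2 levels of Bmp2, Kitl, Bmpr1a and Gdf9 and mean log2 levels of the oocyte and luteal lists by mouse number, with pioglitazone mice as filled and vehicle mice as open circles. Bmp2, shown by its brightest probe only, and Kitl are lowest in mice numbered 3 and stand higher at numbers 1 and 4. Bmpr1a and the luteal list are high in mice 2 and 3, and Gdf9 lies in a narrow range, between 4.87 and 6.66 relative intensity units.

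Bmp4, a BMP that theca cells make in rodents, was steady in all mice. Pioglitazone mice 1 to 4 had 2.23, 2.97, 2.54 and 2.44 relative intensity units, against 2.97, 2.21, 2.74 and 3.20 in vehicle mice 1 to 4. The log2 difference was -0.12 (standard error 0.16, adjusted p = 0.91 in limma), with a 95% interval from -0.49 to 0.24. The interval spans 0.712 to 1.18 times the vehicle level.

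Bmp6, which oocytes and granulosa cells express in rodents, had 6.23, 6.45, 5.52 and 4.92 relative intensity units in pioglitazone mice 1 to 4, against 7.31, 5.74, 3.15 and 6.69 in vehicle mice 1 to 4. The groups shared a range, with vehicle mouse 3 below all other mice, as in Kitl. The log2 difference was 0.075 (standard error 0.26, adjusted p = 0.97 in limma, 95% interval -0.50 to 0.65), and without vehicle mouse 3 it was -0.19.

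Grem1, the antagonist that binds BMP2 and BMP4 and is a cumulus target of GDF9 in the mouse, had the largest positive log2 difference of the 10 genes. It had 1.55, 3.23, 1.23 and 1.60 relative intensity units in pioglitazone mice 1 to 4, against 1.21, 1.28, 1.15 and 1.76 in vehicle mice 1 to 4. Pioglitazone mouse 2 stood above the others, which shared a range with the vehicle mice. The mean was 1.90 ± 0.90 with pioglitazone and 1.35 ± 0.28 with vehicle (SD, n = 4 each), with a log2 difference of 0.41 (standard error 0.29, adjusted p = 0.86 in limma). Without pioglitazone mouse 2 the log2 difference was 0.13.

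Among the listed genes, Bmpr2, Bmpr1a and Bmpr1b were those with a difference of the same sign at all 4 mouse numbers. This was not general to receptors. Of the other receptor and coreceptor genes tested, Acvr2a, Acvrl1 and Hjv also kept 1 sign, while Acvr1, Acvr2b, Rgma, Rgmb, Bambi and Kit did not. Bmpr2, the type II receptor that binds BMP15 and most BMPs, had 0.67, 0.91, 0.67 and 0.85 relative intensity units in pioglitazone mice 1 to 4, against 0.60, 0.62, 0.47 and 0.76 in vehicle mice 1 to 4. It was higher with pioglitazone at all 4 numbers, although the groups overlapped. Of the tested probes that had a value on all 8 arrays, 7.56% were higher at all 4 numbers and 12.9% were lower at all 4. The means were 0.775 ± 0.122 with pioglitazone and 0.613 ± 0.118 with vehicle (SD, n = 4 each), and the log2 difference was 0.34 (standard error 0.19, unadjusted p = 0.0948, adjusted p = 0.838 in limma). With the mouse number as a block the unadjusted p was 0.0502 (adjusted p = 0.575), and without vehicle mouse 4 the log2 difference was 0.46 (unadjusted p = 0.0419 in limma). The 2-sided exact permutation p, from all 70 ways to divide the mice, was 0.143, where 4 against 4 mice allow no value under 0.0286.

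Bmpr1a, a type I receptor for BMP2 and BMP4 also called ALK3, lay near the limit of sensitivity. It had 0.123, 0.36, 0.45 and 0.16 relative intensity units in pioglitazone mice 1 to 4, against 0.19, 0.43, 0.49 and 0.29 in vehicle mice 1 to 4, so that 2 pioglitazone mice and 1 vehicle mouse were under 0.2. Mice 2 and 3 were high and mice 1 and 4 low in both groups, as in the luteal list, whose part in this was not tested. At each number the pioglitazone mouse was lower, as in 12.9% of the tested probes with a value in every array. The mean was 0.275 ± 0.156 with pioglitazone and 0.351 ± 0.136 with vehicle (SD, n = 4 each), and the log2 difference of -0.46 had a standard error of 0.45 without a block (adjusted p = 0.887 in limma). With the mouse number as a block the standard error was 0.17 and Bmpr1a was the 1 gene of the 10 called (unadjusted p = 0.029, adjusted p = 0.575 in limma), where 8.6% of all probes were called, 3.4% as higher and 5.2% as lower. With values under 0.2 raised to 0.2 the log2 difference was -0.23 without the block, with array weights it was -0.033, and with a mouse left out it ran from -0.76 to -0.14.

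Bmpr1b, the type I receptor ALK6 of granulosa cells and oocytes, through which BMP15 signals, had 3.63, 3.84, 3.90 and 2.93 relative intensity units in pioglitazone mice 1 to 4, against 4.12, 4.07, 5.00 and 3.56 in vehicle mice 1 to 4. It too was lower with pioglitazone at all 4 numbers, while the groups overlapped. A lower value at all 4 numbers held for 12.9% of the tested probes with a value in every array. The mean was 3.58 ± 0.44 with pioglitazone and 4.19 ± 0.60 with vehicle (SD, n = 4 each), with a log2 difference of -0.23 (standard error 0.16, adjusted p = 0.86 in limma, 95% interval -0.59 to 0.13). With the block its unadjusted p was 0.132. Relative to the granulosa list, which was 0.30 higher with pioglitazone, the log2 difference was -0.53 (unadjusted p = 0.0621 in limma). Bmpr1a and Bmpr2 did not follow each other over the mice. Their Pearson r was -0.143 and their Spearman rho 0.0476 (exact permutation p = 0.729 and 0.935, the same after adjustment), and r without pioglitazone mice 1 and 4 was -0.50.

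**Figure D3:**
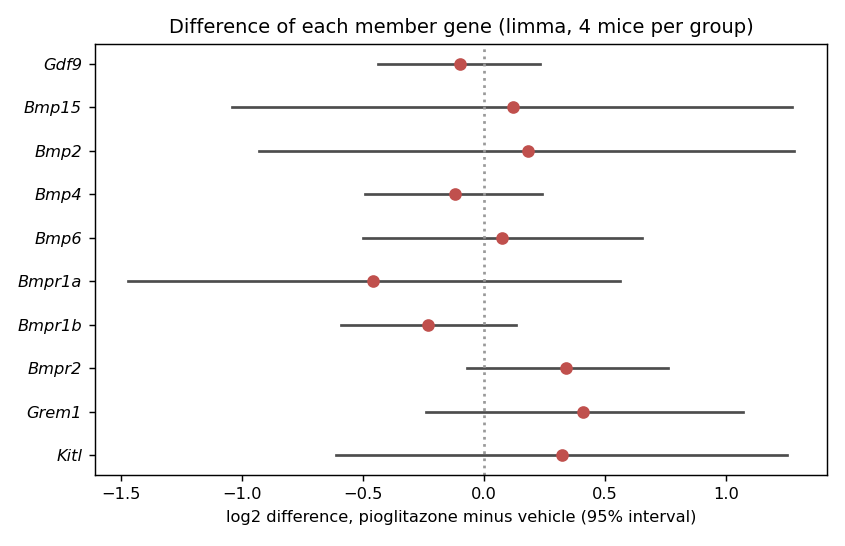
Log2 differences, pioglitazone minus vehicle, of the 10 genes with 95% intervals from limma (4 mice per group). Points are estimates, bars are intervals and the dotted line is 0, which lies within every interval, for example from -0.07 to 0.76 in Bmpr2.

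Of 63 other genes of the pathway, 59 had a named probe and 55 were tested. Of these, 1 was higher and 3 were lower with pioglitazone at unadjusted p under 0.05, together 7.27%, against 1.97% higher and 3.53% lower among all probes tested. The median log2 difference was -0.05. Pioglitazone and vehicle values did not overlap in 3 of the 55, against 4.59% of all probes tested, and these were Sostdc1, Acvr2a and Gdf2.

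Sostdc1, a secreted BMP and WNT antagonist, had 0.393, 0.40, 0.381 and 0.274 relative intensity units in pioglitazone mice 1 to 4, against 0.515, 0.535, 0.524 and 0.473 in vehicle mice 1 to 4. Every pioglitazone value lay below every vehicle value. The log2 difference was -0.52 (standard error 0.16, unadjusted p = 0.00945, adjusted p = 0.837 in limma). Acvr2a, a type II receptor for activins and some BMPs, had 0.886, 1.00, 0.961 and 0.717 with pioglitazone, against 1.24, 1.09, 1.28 and 1.20 with vehicle. Its groups were likewise apart, with a log2 difference of -0.44 (standard error 0.15, unadjusted p = 0.015, adjusted p = 0.837 in limma). Both genes kept an unadjusted p under 0.05 under all alternatives run for them, each mouse left out in turn included. In each the exact permutation p was 0.0286, the smallest possible. Any gene whose groups do not overlap has this value here, Gdf2 included, so it only restates the separation.

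Gdf2, which encodes BMP9, a circulating ligand made by the liver, had 0.961, 1.27, 1.01 and 0.72 relative intensity units in pioglitazone mice 1 to 4, against 1.32, 1.36, 1.32 and 1.32 in vehicle mice 1 to 4. The log2 difference was -0.45 (standard error 0.18, unadjusted p = 0.0304, adjusted p = 0.837 in limma). Its call was lost with array weights, with unequal variances, and without pioglitazone mouse 1 or 4 or vehicle mouse 1, 2 or 4, where the log2 difference ran from -0.46 to -0.31. Fst, the gene of follistatin, which binds activins and some BMPs, was the 1 gene called as higher. Its values of 2.73, 6.39, 3.92 and 5.82 with pioglitazone overlapped those of 2.10, 3.76, 2.62 and 3.11 with vehicle, and its unadjusted p was 0.0494 (adjusted p = 0.837 in limma, log2 difference 0.66). The call of Fst was lost without pioglitazone mouse 2, 3 or 4 or vehicle mouse 1, 3 or 4, where the log2 difference ran from 0.49 to 0.72, and also with a floor of 0.01, cyclic loess, no filter, the methods' t-test and unequal variances. The call was kept with the mouse number as a block (unadjusted p = 0.00298, adjusted p = 0.575 in limma). With the block 3.4% of all probes tested were called as higher. Granulosa cells make follistatin, and the granulosa list was 0.30 higher with pioglitazone, whose part in the Fst values was not tested.

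**Figure D4:**
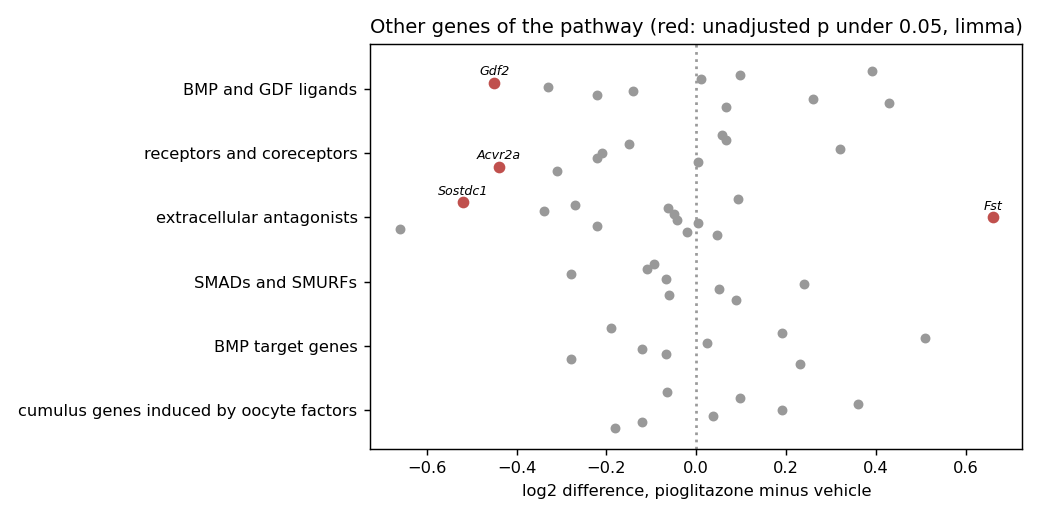
Log2 differences, pioglitazone minus vehicle, of the 55 other pathway genes tested, by list. Each point is the brightest probe of a gene, and the 4 genes called at unadjusted p under 0.05 are red, Gdf2, Acvr2a and Sostdc1 to the left of 0 and Fst to the right.

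In the ligand list 10 genes were tested, with 1 lower (Gdf2), 0 higher and a median log2 difference of 0.04. Gdf10, Bmp3 and Gdf6 had log2 differences of -0.33, 0.43 and 0.39, and with a mouse left out Bmp3 ran from 0.31 to 0.67 and Gdf6 from 0.21 to 0.60. Among 9 receptors and coreceptors 1 was lower (Acvr2a) and 0 were higher, with a median of -0.15. The pseudoreceptor gene Bambi, which encodes a decoy without a kinase, had -0.21, the endothelial receptor gene Acvrl1 -0.22 and the coreceptor gene Hjv 0.32. Acvrl1 was at -0.067 without vehicle mouse 3, Hjv at 0.009 without pioglitazone mouse 4, and Bambi ran from -0.30 to -0.12 with a mouse left out. Of 13 antagonists tested 1 was higher (Fst) and 1 lower (Sostdc1), with a median of -0.05, and Fstl3 and Chrdl1 had -0.34 and -0.22, with Fstl3 between -0.52 and -0.21 when a mouse was left out.

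Downstream of the receptors 0 genes were called, against 5.5% of all probes tested. Smad5, which averaged 0.123 with pioglitazone and 0.175 with vehicle, and Smad7, which had no named probe, were not tested. The 8 SMAD and SMURF genes tested had a median log2 difference of -0.06, with -0.28 for Smad9, one of the SMADs that BMP receptors phosphorylate, 0.24 for the common partner Smad4, and -0.094 and -0.11 for the ubiquitin ligase genes Smurf2 and Smurf1. With a mouse left out Smad9 ran from -0.42 to -0.16, Smad4 from 0.14 to 0.35 and Smurf2 from -0.14 to -0.053. The 8 BMP target genes had a median of -0.02, with 0.51 for Id4, 0.19 for Msx1, -0.19 for Msx2 and -0.28 for Hey1. Id4 was at 0.12 without vehicle mouse 3 and at 0.22 without pioglitazone mouse 2, Msx2 at -0.09 without vehicle mouse 4 and -0.11 without pioglitazone mouse 3, and Msx1 ran from 0.11 to 0.27 with a mouse left out. The 7 cumulus genes tested that oocyte factors induce had a median of 0.04, with 0.19 for Ptgs2, 0.36 for Ptx3, -0.18 for Ldha and -0.12 for Pfkp, where Ptgs2 ran from 0.087 to 0.34 and Pfkp from -0.21 to -0.056 with a mouse left out. Has2, the hyaluronan synthase of cumulus expansion, was under 0.2 in all 8 mice, as was Bmp5.

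A few of these genes varied between mice as much as Bmp2 and were chosen for mention after their values were seen. Kit, the receptor of KIT ligand, had 3.46, 7.05, 4.61 and 5.92 relative intensity units in pioglitazone mice 1 to 4, against 13.5, 3.45, 1.80 and 12.2 in vehicle mice 1 to 4. Vehicle mice 1 and 4 were thus above all pioglitazone mice and vehicle mice 2 and 3 below or level with the lowest of them. The log2 difference of Kit was -0.15 (standard error 0.61, adjusted p = 0.974 in limma). The BMP type I receptor gene Acvr1 had 2.25, 6.24, 10.0 and 3.18 with pioglitazone, against 3.40, 6.85, 7.97 and 5.74 with vehicle, and the BMP target gene Id2 had 3.81, 8.33, 19.7 and 6.53 with pioglitazone, against 3.38, 16.3, 18.3 and 5.63 with vehicle. Both were highest in mouse 3 of each group and next in mouse 2, as Bmpr1a was.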

How the data were processed

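The deposited table holds 1 linear intensity per probe and mouse for 8 mouse ovary arrays. As the authors deposited them, intensities were already background-corrected by the CodeLink software and scaled to the slide median. The code -9999 was read as missing (47 to 211 spots per array). Each array was divided by its median again, a floor of 0.05 was set, and limma 3.58.1 in R 4.3.3 was run on the log2 scale, with Benjamini-Hochberg adjustment over the 30634 probes that had 3 or more values per group and averaged 0.2 or more in pioglitazone or vehicle mice. Probe names come from the platform annotation (21615 probes with 1 gene, 681 with several, 13931 unnamed), and a gene is represented by its brightest probe. The number of arrays limits the precision. The limma p-values weigh the group difference against the spread between these mice, with variances moderated over all probes, and without the block they take the mice as independent. The fit was tested on simulated data. Arrays with the same replicate number had residual correlations of 0.515, 0.181, 0.274 and 0.232 across probes (vehicle mouse 2 was most like pioglitazone mouse 3, 0.369), so the numbers were treated as pairs in an alternative fit. The basis of that fit is these correlations in the same data, since no pairing is stated in the sample titles or methods. Members and lists were chosen with earlier results of these data known. Named genes are all 10 members, the called genes and up to 4 with the smallest p of each pathway list, and the 5 most like Gdf9. Exceptions are stated. Alternatives were other floors, scalings, filters and tests, array weights, the block, each mouse left out, other probes and levels relative to marker lists.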

Additional observations from a re-analysis of the deposited data

Results flagged for a closer look

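In 70 groups of 4 mice, 4 values lay far from the other 3 relative to the range of their group, and chance flags about 1 in 20 groups. A small gap is also flagged where the other 3 values nearly coincide, as for Gdf2 below. None was in the 10 genes the report is about. Sostdc1 in pioglitazone mouse 4 was 0.274, against 0.381 to 0.40 in the other pioglitazone mice. Vehicle mouse 2 had 1.36 for Gdf2, where the other vehicle mice were at 1.32, 0.659 for Hey1 (0.822 to 0.841 in the others) and 89.4 for Ldha (43.5 to 48.9 in the others).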

How the results depend on the processing

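Over the alternatives run for the 10 genes, 203 values kept their direction and side of the threshold, 11 turned direction and 2 passed the threshold. The block and the other filters and tests leave the log2 difference unchanged, so under them only the side of the threshold could change. The 203 are therefore not a measure of how stable the direction is. Array weights turned Bmp2 to -0.42 (its second probe to -0.078), Bmp6 to -0.11, Kitl to -0.071, Hjv to -0.013, Smurf1 to 0.086 and Ptx3 to -0.013. Relative to the granulosa list Bmp2 was at -0.13. With each mouse left out in turn, log2 differences ran from -0.19 to -0.038 for Gdf9, -0.25 to 0.56 for Bmp15, -0.19 to 0.49 for Bmp2 (-0.047 to 0.43 for its second probe), -0.19 to 0.22 for Bmp6, -0.064 to 0.64 for Kitl, 0.23 to 0.46 for Bmpr2, -0.28 to 0.014 for Smurf1, -0.46 to 0.029 for Hey1, -0.063 to 0.68 for Ptx3 and -0.28 to 0.063 for Ldha. With the replicate block, 2635 probes and 1 of the 10 genes (Bmpr1a, -0.46) were called at unadjusted p under 0.05, against 1685 and 0, and the block changed no other call among the 10. The number of probes called ran from 737 (without pioglitazone replicate 4) to 2443 (without pioglitazone replicate 1) with a mouse left out, that of the 10 genes from 0 to 1 (Bmpr2, without vehicle replicate 4) and that of the pathway genes from 2 (without pioglitazone replicate 4 or vehicle replicate 1) to 5, against 4. The relation of Bmpr1b and Kitl had r = -0.813 with quantile and -0.845 with cyclic loess normalization, and that of Bmpr1a and Bmpr2 turned to 0.0437 with cyclic loess. The cause of these changes was not tested. Bmpr1a could not be fitted with at least 0.2 required in every array.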
